A study of Homo sapiens with 6 samples.

Results

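Cytosolic ribosomal proteins were compared between spheroids of the colorectal cancer cell lines SW480 and SW620. Genes were taken by symbol (RPL, RPS, RPLP and RPSA, with pseudogenes and the S6 kinases left out), and the feature with the highest mean stood for a gene. This gave 49 of the 14884 genes measured: 31 proteins of the large 60S subunit and 18 of the small 40S subunit. A human gene annotation (GRCh38.p14) holds 81 protein-coding genes under these symbols, and the remaining 32, among them RPL5, RPSA and the stalk proteins RPLP0, RPLP1 and RPLP2, were not analysed here. The labels give SW480 as the primary tumour line, and SW620 is the line of a lymph node metastasis. Both grew as spheres, without serum but with added growth factors, a culture used to look at tumour-initiating cells, and neither carried a treatment or a genetic change. Total RNA of each line was hybridised to 3 arrays, which the submitters call technical replicates, so p-values measure the spread between arrays and not between cultures. Each line is a single established line, so a difference between them cannot be told apart from a difference between primary tumour and metastasis.

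A ribosome is built from ribosomal RNA and a single copy of nearly every ribosomal protein. The small subunit reads the mRNA and the large subunit joins amino acids. Because the proteins are needed in equal numbers, their mRNAs are usually controlled together: most begin with a tract of pyrimidines, the 5′ terminal oligopyrimidine or TOP tract, through which the kinase mTOR and the RNA-binding protein LARP1 adjust their translation. Several of the proteins also act alone, as RPL11 does when it binds and blocks MDM2, the ligase that degrades p53, and inherited loss of a copy of many of them causes Diamond-Blackfan anaemia.

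The starts of 11 of these genes are shown for the tract that ties the family together: the 4 genes with the largest rise, the 4 with the largest fall, RPS6, and RPS27 beside its diverged copy RPS27L. Each line gives 30 bases before and 20 bases from the annotated start, from RefSeq (GRCh38.p14), on the gene's own strand. Capitals mark a C at the start with all pyrimidines that follow it without a break, where at least 4 do.
RPS23 (higher in SW620, chr5:82278335-82278384, minus strand): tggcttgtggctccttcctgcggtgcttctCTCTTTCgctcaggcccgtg
RPS26 (higher, chr12:56041888-56041937, plus strand): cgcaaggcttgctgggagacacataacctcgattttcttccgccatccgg
RPS24 (higher, chr10:78033833-78033882, plus strand): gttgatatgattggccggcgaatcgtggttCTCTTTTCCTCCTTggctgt
RPL38 (higher, chr17:74203648-74203697, plus strand): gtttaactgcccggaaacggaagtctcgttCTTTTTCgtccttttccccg
RPS6 (higher, chr9:19380217-19380266, minus strand): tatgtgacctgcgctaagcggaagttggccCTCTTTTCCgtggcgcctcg
RPL31 (lower in SW620, chr2:101002259-101002308, plus strand): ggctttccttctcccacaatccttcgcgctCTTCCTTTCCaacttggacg
RPL34 (lower, chr4:108620546-108620595, plus strand): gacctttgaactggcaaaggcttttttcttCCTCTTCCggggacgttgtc
RPS14 (lower, chr5:150449720-150449769, minus strand): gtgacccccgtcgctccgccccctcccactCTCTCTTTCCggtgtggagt
RPL28 (lower, chr19:55385902-55385951, plus strand): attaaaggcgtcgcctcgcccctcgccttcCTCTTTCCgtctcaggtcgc
RPS27 (did not pass, chr1:153990732-153990781, plus strand): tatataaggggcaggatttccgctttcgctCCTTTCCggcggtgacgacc
RPS27L (lower, chr15:63157458-63157507, minus strand): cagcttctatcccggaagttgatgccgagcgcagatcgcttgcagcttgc

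Of the 49 genes, 44 had a start in that table, and 30 of them (68.2%) had such a tract at an annotated start, against 6.24% of 15842 protein-coding genes. The length required of the tract was set after the values of these genes were known. The tract stood at the start of 7 of the 8 genes that rose in SW620, of 4 of the 7 that fell and of 19 of the 29 that did not pass. Both groups that changed therefore hold genes with the tract, and RPS26 and RPS27L lack it at the start shown. Within the 300-base windows from 250 bases before to 50 after the start, on either strand, CTTCCG was found in 29 genes (65.9%, against 29.7% of protein-coding genes) and CTTTCC in 20 (45.5%, against 32%). TATAAA was found in 3 (6.82%, against 12.4%), the palindromic NRF1 motif in 1 (2.27%, against 1.99%) and the long YY1 motif in 0 (against 1.58%). These are counts of letters, in which matches of different motifs may share end bases, and no binding was measured.

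As a family the ribosomal protein genes did not shift one way between the lines. In limma's moderated test, 8 of the 49 rose and 7 fell in SW620 at an adjusted p below 0.05, and 34 did not pass. That is 30.6% of the members called, beside 35.6% of all genes (16.0% higher and 19.5% lower) and 49.8% of genes brighter than the median feature (53.4% where those genes were fitted alone). The balance moved with the scaling: 10 rose and 5 fell when arrays were centred on their 75th percentile, and 6 rose and 9 fell after cyclic loess. The median difference, SW620 minus SW480, was 0.035 on the log2 scale over the members and 0.0132 over all genes. Changes were small: the largest was 1.49-fold and 0 members reached 2-fold, beside 6.07% of all genes that were called at that size. The median absolute difference was 0.181 for the members, 0.172 over all genes and 0.262 over genes brighter than the median feature. In 22 of the 49 genes the arrays of the lines did not overlap (12 higher and 10 lower), where 45.7% of all genes did not overlap. Every gene that passed was among these 22. Of the 9475 genes brighter than the median feature, 2661 were higher and 3023 lower without overlap, a larger share than among the members.

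**Figure D1:**
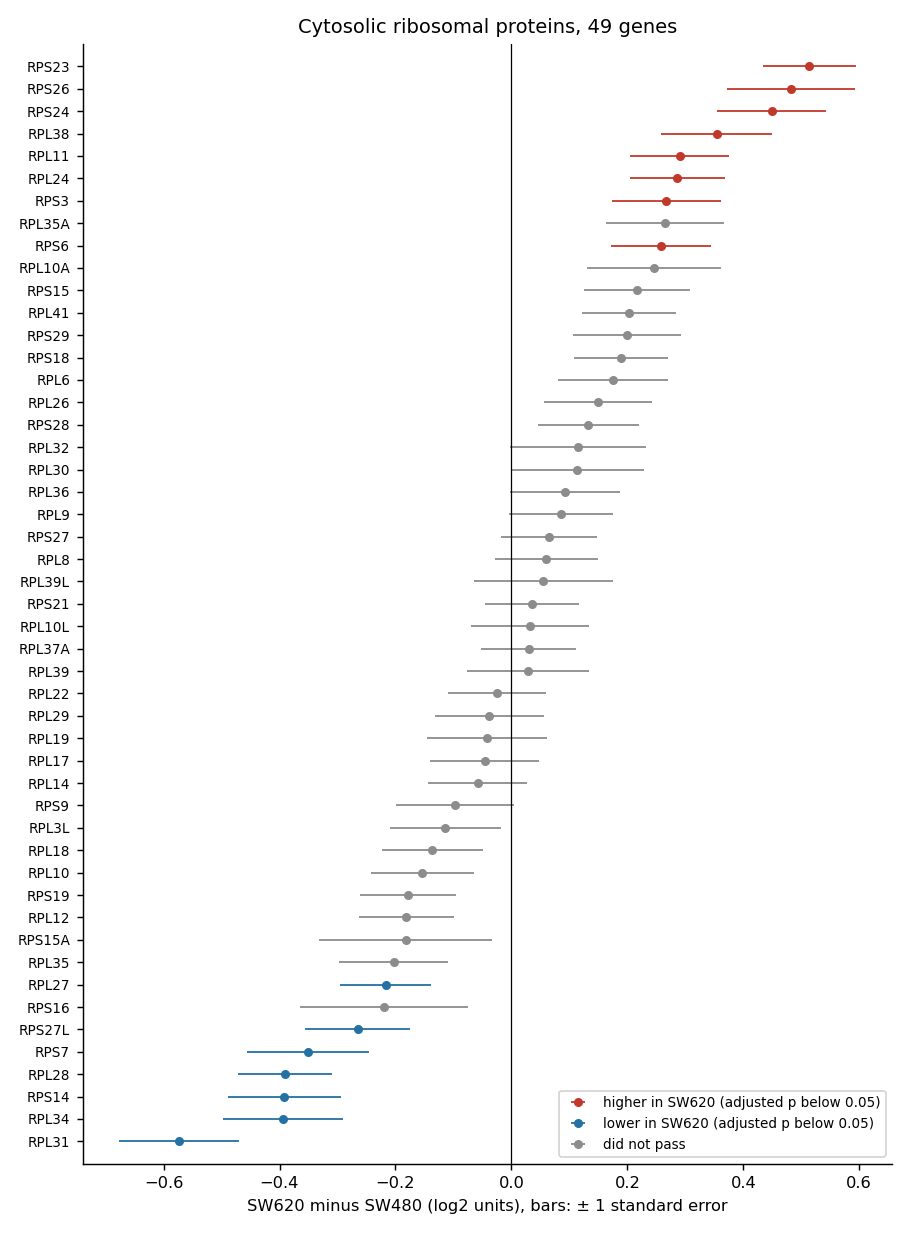
Difference of each of the 49 ribosomal protein genes, SW620 minus SW480, in log2 units on the horizontal axis, with bars of 1 standard error of the limma fit (3 arrays per line). Red points rose (8), blue points fell (7) and grey points did not pass the adjusted threshold (34). The values run from -0.57 in RPL31 to 0.51 in RPS23, and the grey points lie between -0.22 and 0.27.

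The small subunit held the largest rises. Of its 18 measured genes, 5 rose, 3 fell and 10 did not pass, with a median difference of 0.099. That is 44.4% called, beside 35.6% of all genes and 49.8% of genes brighter than the median feature. RPS23, a protein at the decoding centre where codons are matched, had values of 9.10, 9.15 and 9.09 on the SW480 arrays and 9.68, 9.62 and 9.59 on the SW620 arrays (log2 units). The 3 SW620 arrays lay above every SW480 array, a 1.43-fold rise (log2 difference 0.51, standard error 0.0800; limma adjusted p = 0.000209). RPS26, which lies near the path of the mRNA and is mutated in Diamond-Blackfan anaemia, went from 7.42, 7.44 and 7.06 to 7.73, 7.72 and 7.91 (1.40-fold). SW480 replicate 3 was low, and the gene also passed without it. RPS24, another gene of that anaemia, went from 8.07, 7.87 and 8.18 to 8.53, 8.43 and 8.51 (1.36-fold). These 3 kept their call under every alternative run, 15 in all.

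Both other rises of the small subunit were weaker. RPS3, which sits at the mRNA entry channel and also has a role in DNA repair, was 8.39, 8.50 and 8.41 in SW480 and 8.61, 8.62 and 8.87 in SW620. Its difference of 0.27 (limma adjusted p = 0.0405) fell to 0.18 without SW620 replicate 3 (adjusted p = 0.149), and it also missed the threshold without each of the SW480 replicates in turn, after repeated quantile normalization or cyclic loess, and with the replicate number as a block. RPS6, the substrate of the S6 kinases and a common readout of mTOR activity, was 9.15, 9.02 and 9.10 in SW480 and 9.45, 9.25 and 9.34 in SW620. The difference was 0.26 (adjusted p = 0.0336), and it missed the threshold without SW480 replicate 2 or 3, without SW620 replicate 1 or 3 and under the same 2 normalizations, with adjusted p from 0.0527 to 0.124. These arrays measure RPS6 mRNA and not its phosphorylation.

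Among the small-subunit genes that fell, RPS14, whose loss of a copy underlies the anaemia of the 5q- syndrome, was 7.63, 7.43 and 7.40 in SW480 and 7.10, 6.96 and 7.22 in SW620. The arrays did not overlap and the gene was 1.31-fold lower (-0.39, standard error 0.0977; limma adjusted p = 0.00658), a call kept in every alternative. RPS7, a further gene of Diamond-Blackfan anaemia that can bind MDM2, was 5.92, 5.96 and 5.69 in SW480 and 5.44, 5.40 and 5.69 in SW620. Its arrays all but met, and its difference of -0.35 (adjusted p = 0.019) missed the threshold without SW480 replicate 1 or 2 or SW620 replicate 1 or 2 (adjusted p from 0.0648 to 0.0795). RPS27L, a copy of RPS27 that p53 switches on, was 5.32, 5.31 and 5.50 in SW480 and 5.21, 5.10 and 5.03 in SW620. The gap between the groups was small, and the call (-0.27, adjusted p = 0.0366) was lost in 9 of 15 alternatives, among them the replicate block, the trended variance model and leaving out SW480 replicate 2 or 3 or SW620 replicate 2 or 3.

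Of the 31 measured large-subunit genes 3 rose, 4 fell and 24 did not pass, with a median of 0.0299. Here 22.6% were called, beside the same 35.6% of all genes and 49.8% of brighter genes. RPL31, a protein at the rim of the exit tunnel, fell most of all 49: it was 7.46, 7.20 and 7.42 in SW480 and 6.62, 6.90 and 6.83 in SW620, with every SW620 array below every SW480 array. This was 1.49-fold (-0.57, standard error 0.103; limma adjusted p = 0.00064). RPL34 was 8.01, 7.94 and 7.80 in SW480 against 7.42, 7.41 and 7.73 in SW620 (1.31-fold lower). SW620 replicate 3 came within a short distance of SW480. RPL28 was 6.27, 6.27 and 6.23 in SW480 against 5.91, 5.89 and 5.78 in SW620 (1.31-fold lower). These 3 kept their call in all 15 alternatives. RPL27, another Diamond-Blackfan gene, was 10.34, 10.40 and 10.40 against 10.17, 10.17 and 10.15. Its arrays agreed closely within a line, but with a difference of -0.22 it lay at the threshold (adjusted p = 0.0482). The call was lost when any single array of the 6 was left out, with the replicate block and after centring on the 75th percentile (adjusted p from 0.0698 to 0.127).

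The 3 large-subunit genes that rose were RPL38, RPL11 and RPL24. RPL38, known from mice for its part in translating Hox mRNAs, was 7.06, 7.08 and 7.18 in SW480 and 7.35, 7.64 and 7.39 in SW620 (0.35, limma adjusted p = 0.0108). Without SW620 replicate 2, the highest array, the difference was 0.26 (adjusted p = 0.0508). RPL11, the MDM2-binding protein that acts in a complex with RPL5 and 5S RNA, was 8.88, 9.05 and 8.88 in SW480 and 9.22, 9.19 and 9.27 in SW620 (0.29, adjusted p = 0.0175). Its call was lost without SW480 replicate 1 (adjusted p = 0.0614) or replicate 3 (adjusted p = 0.0678). RPL24, which forms a bridge between the subunits, was 8.39, 8.54 and 8.52 against 8.75, 8.77 and 8.79 (0.29, adjusted p = 0.0152), and its call was lost without SW480 replicate 1 (0.24, adjusted p = 0.0651). All 3 SW620 arrays were above all 3 SW480 arrays in each of these genes.

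**Figure D2:**
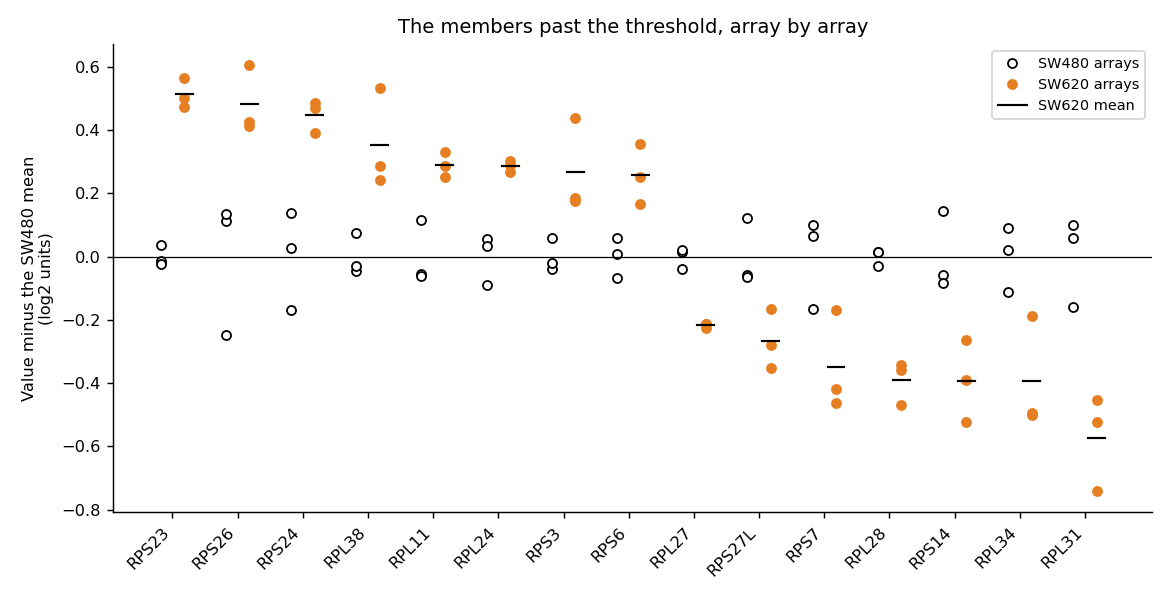
Values of the 15 ribosomal protein genes that passed, on each array, as the distance from the gene's SW480 mean in log2 units (open points SW480, filled points SW620, short line the SW620 mean). The arrays of the lines are separate in every one of these genes, widely in RPS23 and RPL28 and by little in RPS7, RPL34 and RPS27L.

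The 34 genes that did not pass had differences from -0.22 (RPS16) to 0.27 (RPL35A), and the 95% interval of each, not adjusted for the number of genes, lay within 1.5-fold in either direction. That bound is wider than the largest change called (1.49-fold), so it does not set these genes apart from the called ones. Some of the intervals left out 0, as that of RPL35A did (0.045 to 0.485), and all measure the spread between arrays only. Nearest to the threshold was RPL35A, a Diamond-Blackfan gene, at 8.59, 8.50 and 8.46 in SW480 and 8.57, 8.91 and 8.86 in SW620 (limma adjusted p = 0.0595), where the lowest SW620 array overlaps SW480. In 7 further genes the arrays of the lines did not overlap although the test was not passed: RPS15, RPL41, RPS29 and RPS18 were higher in SW620, and RPL10, RPS19 and RPL12 lower. RPS19, the gene most often mutated in Diamond-Blackfan anaemia, was 10.10, 10.06 and 9.98 in SW480 and 9.88, 9.80 and 9.93 in SW620 (-0.18, adjusted p = 0.121). RPL10, which joins the large subunit last, differed by -0.15 with a 95% interval from -0.35 to 0.04. RPS16 and RPS15A, with standard errors of 0.146 and 0.15, were the least precisely measured, and SW620 replicate 2 of RPS16 (7.78 beside 8.37 and 8.42) was low.

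RPS15, of the decoding side of the small subunit, showed how close some of these came: it was 10.05, 9.92 and 9.79 in SW480 and 10.14, 10.08 and 10.18 in SW620 (0.22, limma adjusted p = 0.0839). RPL41 was 12.69, 12.60 and 12.60 in SW480 and 12.80, 12.81 and 12.88 in SW620 (0.20, adjusted p = 0.0708). RPL12, at the base of the stalk that calls in the elongation factors, was 12.24, 12.21 and 12.13 against 12.01, 11.96 and 12.07 (-0.18, adjusted p = 0.11). In each of these 3 genes the arrays of the lines stood apart, by a small gap. At the flat end, RPS21, RPL37A, RPL29, RPL17 and RPL14 differed by 0.0350, 0.0299, -0.0380, -0.0459 and -0.0584, with overlapping arrays. RPS27, the parent of RPS27L, was 11.96, 11.85 and 11.81 in SW480 and 11.94, 11.91 and 11.97 in SW620, a difference of 0.0652 with a 95% interval from -0.11 to 0.24. Its arrays overlapped. Of the other overlapping genes RPL10A (0.25), RPL6 (0.18), RPL26 (0.15), RPS28 (0.13), RPL32 (0.12), RPL30 (0.11), RPL36 (0.0930), RPL9 (0.0858) and RPL8 (0.0605) had positive differences and RPS9 (-0.0977), RPL18 (-0.14), RPS15A (-0.18) and RPL35 (-0.20) negative ones.

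Of the 49 genes, 4 had more than 1 feature on the array. All 5 features of RPL41, the shortest of the ribosomal proteins, were higher in SW620, by 0.12 to 0.31, and 1 of them passed when each feature was tested separately (limma adjusted p = 0.0215); it was not the brightest. The brighter feature of RPS18 differed by 0.19 (adjusted p = 0.0978) and the other by 0.27 (adjusted p = 0.0258). The features of RPL39 did not agree: the brighter differed by 0.0284 and the other by 0.43 (adjusted p = 0.0512), the latter with a high value on SW620 replicate 3 (8.19 beside 7.42 and 7.69). The features of RPL19 differed by -0.0424 and 0.0937, neither past the threshold. The sign of RPL19 and the size of RPL39 thus depend on the feature.

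Ribosomal protein genes have many processed pseudogenes with near-identical sequence, and how far a probe of a gene also binds these was not tested. Of 23 measured pseudogenes of the family 2 rose and 7 fell (39.1% called, beside 35.6% of all genes), with a median of -0.114, and 3 changed by at least 2-fold. RPL23AP32 was 4.48-fold lower in SW620. RPL23AP82 and RPL23AP87 were listed with the same values on all 6 arrays and were 2.27-fold lower, so these counts hold 1 measurement under 2 names. Their parent gene RPL23A was not analysed here. Where a called gene had a measured pseudogene, RPS26P11 rose by 0.23 (limma adjusted p = 0.0407) beside RPS26, whereas RPL31P11 differed by -0.0274 and RPS7P5 by 0.165, and neither passed. All 3 of these pseudogenes had array means below the median feature (4.065).

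Some ribosomal proteins have a second gene whose protein can take the same place in the ribosome. RPL22L1, the copy of RPL22, was 7.60, 7.58 and 7.57 in SW480 and 7.10, 7.14 and 7.06 in SW620, a 1.40-fold fall (-0.48, standard error 0.0791; limma adjusted p = 0.000319) with no overlap. RPL22 itself, which binds and represses the RPL22L1 mRNA, differed by -0.0252 with a 95% interval from -0.21 to 0.16. The change of RPL22L1 minus that of RPL22 was -0.46, and that of RPS27L minus that of RPS27 was -0.33. For RPL10L minus RPL10 it was 0.19. In exact two-sided permutation tests these 3 pairs had p = 0.10, the smallest that 3 against 3 arrays can give, and p = 0.167 after adjustment over the 5 pairs measured. RPL26L1 minus RPL26 (-0.23, exact p = 0.20) and RPL39L minus RPL39 (0.0267, exact p = 1) were the other pairs. RPL39L and RPL10L, copies used chiefly in the testis, had means below the 25th percentile feature (3.53) in both lines and differed by 0.0551 and 0.0322, while RPL3L, the heart and muscle form, differed by -0.114. RPL7L1, a relative of RPL7 that acts in assembly, rose from 7.65, 7.78 and 7.69 to 8.27, 8.23 and 8.22 (0.53, adjusted p = 0.000178). Both RPL26L1 (-0.0823) and RPL36AL (-0.131) did not pass.

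The differences of ribosomal protein genes went with those of genes beside them on the chromosome. For each gene the nearest 10 measured genes on either side were taken, fewer at chromosome ends and without other ribosomal protein genes, a step added after the values had been seen. The surrounding median was above 0 for all 8 genes that rose and below 0 for 5 of the 7 that fell. Medians above 0 also lay around many members that did not pass, some of them with differences below 0. No share over all genes was taken for these counts of signs. Around RPS23 (chromosome 5) the median was 0.34, with 11 of 20 neighbours higher in SW620 and 0 lower. Around RPS26 (chromosome 12) it was 0.27, again with 11 of 20 higher and 0 lower, and RPL41, which lies close by, differed by 0.20. At the other end, RPL34 (chromosome 4) had a surrounding median of -0.29 with 10 of 20 neighbours lower and 1 higher, and RPS14, on chromosome 5 as RPS23 is, had -0.14 with 8 lower and 0 higher. RPL35 and RPL12, both on chromosome 9, did not pass but differed by -0.20 and -0.18 beside surrounding medians of -0.28 and -0.22. The other 6 genes that rose had surrounding medians near 0: RPS24 (0.0257), RPS6 (0.0423), RPL38 (0.0437), RPL11 (0.0627), RPS3 (0.0811) and RPL24 (0.0886). RPS7 and RPS27L fell beside surrounding medians above 0 (0.00913 and 0.0779), although 5 of the 20 neighbours of RPS7 were lower and 0 higher.

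Over the 49 genes, the difference of a gene and the median of its neighbours had a Pearson r of 0.708 and a Spearman rho of 0.663. Among the 34 that did not pass r was 0.687. The same measure over all 14883 genes with neighbours gave r = 0.287 and rho = 0.34, and over 9475 genes brighter than the median feature r = 0.337 and rho = 0.427. The points share the same 6 arrays and some share neighbours, so these are descriptions, and the difference between the family and other genes was not tested. The number of gene copies was not measured.

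**Figure D3:**
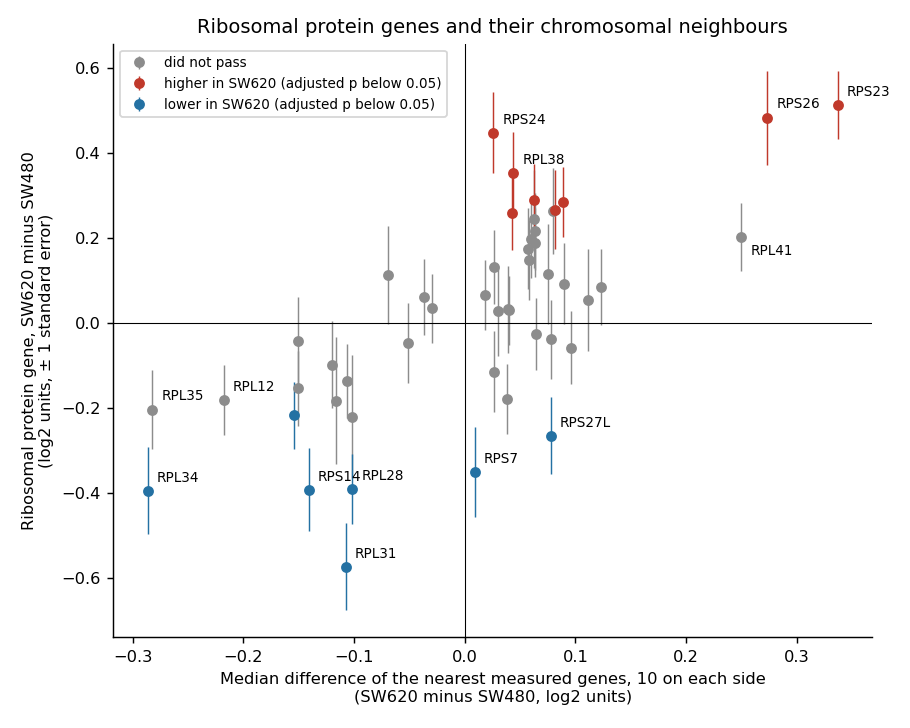
Difference of each of the 49 ribosomal protein genes (vertical axis, SW620 minus SW480 in log2 units, bars 1 standard error) against the median difference of its nearest measured neighbours, 10 on each side (horizontal axis, log2 units). RPS23 and RPS26 lie at the upper right, RPL34 at the lower left, and RPS27L and RPS7 fell although the medians of their neighbours were above 0.

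Genes that work with the ribosomal proteins were taken from lists by function, to be read against the shares called over all genes (35.6%) and over genes brighter than the median feature (49.8%, 2130 higher and 2593 lower of 9475). All measured genes of the assembly, snoRNP, chaperone and mitochondrial lists, and all but 1 of the initiation factors, were brighter than the median feature, so the second share is the nearer one for them, and most of the lists lay close to it in their share called. The factors that assemble the large subunit and carry it to the cytoplasm moved mostly upward: of 43 measured, 20 rose, 3 fell and 20 did not pass (53.5% called), with a median of 0.205 (all genes, 0.0132). NIP7, needed to mature both subunits, rose 3.03-fold (8.80, 8.68 and 8.66 in SW480, 10.25, 10.30 and 10.39 in SW620). The nucleolar GTPase GTPBP4 rose 2.02-fold, and HEATR3, a carrier that brings newly made RPL5 and RPL11 to the nucleus, rose 1.95-fold. Over the alternatives other than the stricter threshold, 13 to 22 of these genes were higher and 1 to 7 lower. In the small-subunit processome and 40S assembly list 12 of 33 rose and 6 fell (54.5% called), with a median of 0.127. The endonuclease NOB1, which makes the last cut of 18S RNA, rose 2.61-fold, the 18S methylase DIMT1 rose by 0.81 and NOL10 was 2.23-fold lower.

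Some of these assembly genes also lie among neighbours that changed with them. NIP7 and NOB1 are close together on chromosome 16, where the surrounding medians were 1.08 (18 of 20 neighbours higher) and 1.25 (19 of 20 higher), and HEATR3, on the same chromosome, had 0.45. DIMT1 (chromosome 5) had 0.48, with 14 of 20 higher and 1 lower. NOL10, which fell, had -0.17, with 7 of 20 lower and 1 higher. GTPBP4, near a chromosome end, had 0.109, with 3 of 11 higher.

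In the list of ribosome-bound proteins and ubiquitin-like fusions of ribosomal proteins, 4 of the 8 listed genes were measured, and all 4 rose. They were HBS1L, which rescues stalled ribosomes (0.67), NACA and BTF3, the subunits of the complex that greets nascent chains (0.53 and 0.47), and FAU, whose product releases the small-subunit protein eS30 (0.295, limma adjusted p = 0.011; named, as the smallest of the 4, after its value was seen). Their surrounding medians were 0.50 for HBS1L (11 of 20 neighbours higher, 0 lower), 0.187 for BTF3, 0.108 for NACA and 0.105 for FAU. Of 8 measured elongation factors, counting EEF2K, the kinase of EEF2, only EIF5A2 passed. It fell from 9.25, 9.27 and 9.22 to 7.13, 6.90 and 7.01, a 4.70-fold lower value in SW620, and its gene is the measured neighbour of RPL22L1 on chromosome 3. Both had surrounding medians above 0: 0.094 for EIF5A2 (4 of 20 neighbours higher, 2 lower) and 0.0865 for RPL22L1 (4 higher, 3 lower). EEF1A1, EEF2 and EEF1G, whose mRNAs carry TOP tracts as those of ribosomal proteins do, were also named after their values were seen: they differed by 0.155, 0.19 and 0.0959 and did not pass.

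Of 15 measured initiation factors and their regulators 2 rose and 5 fell (46.7% called). The cap-binding protein EIF4E (-0.50), EIF5, which triggers GTP hydrolysis at the start codon (-0.44), and EIF4H, which helps to unwind mRNA (-0.35), were lower in SW620. In the snoRNP list, proteins that modify ribosomal RNA, 2 of 12 rose and 4 fell, led by the H/ACA proteins GAR1 (-0.79) and NHP2 (-0.77), while their partner NOP10 rose by 0.64. In the list of other TOP mRNAs and snoRNA hosts 3 of 12 rose and 5 fell, led by VIM, which encodes vimentin (1.11), the nucleolar protein NOP53 (-0.62) and the snoRNA host SNHG8 (-0.50). Chaperones and importers of ribosomal proteins were even, with 3 higher and 3 lower of 13: HEATR3, which is also in the 60S list, and the importer IPO5 (0.47) rose and the 40S-linked PDCD2L (-0.49) fell. Of 4 measured genes of ribosomal RNA transcription, the initiation factor RRN3 rose by 0.38 and the polymerase I subunit POLR1F fell by 0.42 (log2).

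Regulators of these mRNAs showed 1 gene higher and 4 lower of 16 measured (31.2% called). TSC1, an inhibitor of mTOR complex 1 (-0.66), the transcription factor ZBTB7A (-0.34) and the mTOR inhibitor DEPTOR (-0.30) were lower in SW620. DEPTOR was dim: its mean over the arrays (3.99) lay below the median feature (4.065). MYC, a transcription factor that drives ribosome production and the fourth that fell, was named here after its value was seen. It was 8.47, 8.44 and 8.46 in SW480 and 8.27, 8.19 and 8.17 in SW620 (-0.25, limma adjusted p = 0.0286), with 10 of its 20 neighbours lower and 0 higher. The mitochondrial ribosomal proteins, which belong to a separate ribosome, had 23 higher and 10 lower of 78 (42.3% called) and a median of 0.10. None of them, and none of the cytosolic ones, was called at 2-fold or more. Whether the lists differ from each other was not tested.

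**Figure D4:**
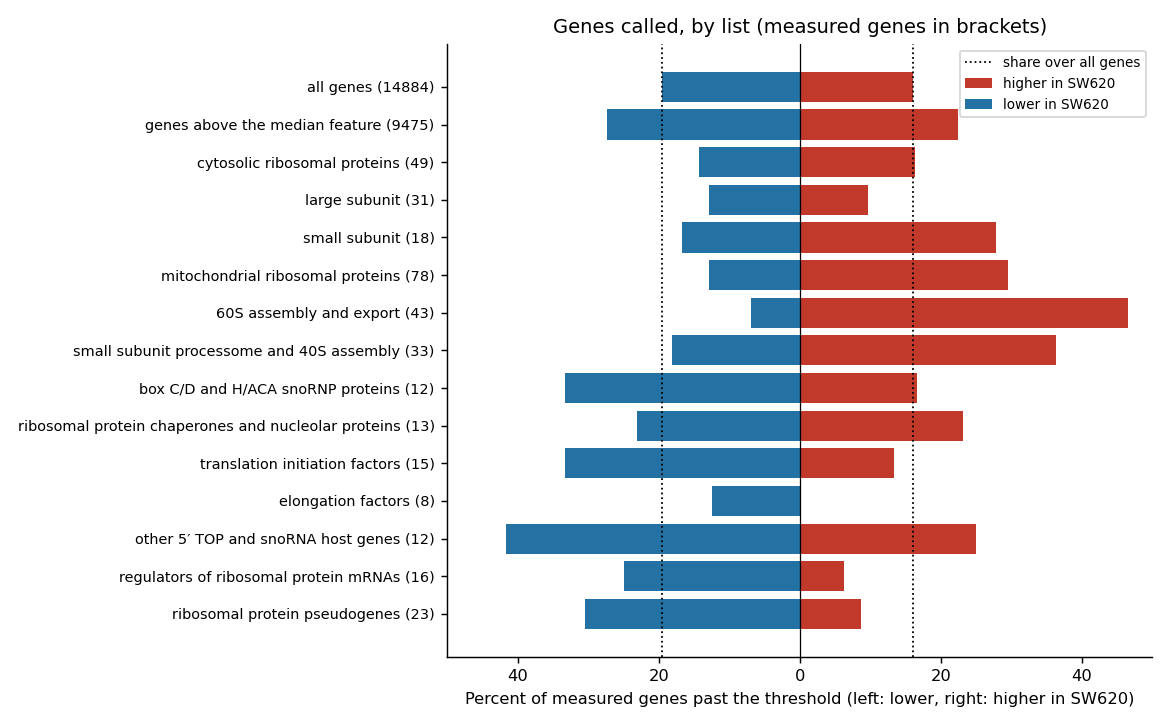
Percent of measured genes that passed the threshold in each list, drawn to the left where lower in SW620 (blue) and to the right where higher (red), with the number measured in brackets and dotted lines at the shares over all genes (19.5% lower and 16.0% higher). The cytosolic ribosomal proteins lie close to the dotted lines, and of the lists drawn the 60S assembly factors extend farthest to the right.

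The arrays themselves were alike: their medians lay between 4.04 and 4.07 log2 units. Of 49 ribosomal protein genes 47 were brighter than the median feature, the exceptions being RPL39L and RPL10L. The labelled tissue was checked on its markers: 7 of 10 measured colorectal epithelial markers in SW480 and 8 of 10 in SW620 were above the median feature, with EPCAM and KRT18 bright and KRT20 and CDX1 below it in both lines. All 3 measured endothelial markers were below it. Of 4 leukocyte markers 3 were above it in SW480 and 4 in SW620, and the sum of their log2 values ran from 20.4 to 20.9 in SW480 and from 27.0 to 27.2 in SW620, largely through LCP1 (4.56 and 9.21). The leukocyte genes PTPRC and CD3E were not analysed here. Of 2 fibroblast markers, DCN was below the median feature in both lines and LUM was 4.73 in SW480 and 7.95 in SW620. The part of these markers in the ribosomal protein differences was not tested. In such bulk RNA, fewer cells with a transcript and less of it per cell cannot be told apart.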

How the data were processed

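Biotin-labelled sense-strand cDNA from spheres of SW480 and SW620 was hybridised to Affymetrix arrays, 3 per line. The deposited values are log2 expression, for which the submitters' processing notes name RMA and Partek; their versions were not given in the sources used here. The log base was taken as 2 from the range (1.99 to 13.9). RMA equalises arrays and compresses bright and dim signals, so folds may be understated, and no detection calls or raw intensities were used.

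Of 53616 features, 16098 had 1 gene symbol, 0 had several and 37518 had none here. The brightest feature by mean stood for each of 14884 genes, all matched to GRCh38.p14 for names and positions. The comparison used limma 3.58.1 under R 4.3.3 (lmFit and eBayes, two-sided, without covariates or filter; prior degrees of freedom 8.39), and p-values were adjusted by Benjamini-Hochberg over the 14884 genes. Standard errors are moderated. Neighbours, motifs and figures used Python 3.11.15. The fit was also run on simulated data with 50 changed genes of each size. It recovered 0 of them at a log2 difference of 0.25, 26 at 0.5 and 50 at 1. Far fewer genes changed there than were called between the lines, which makes the adjustment stricter.

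Any ribosomal protein gene could be named; other genes are the up to 3 called members of each list with the largest difference, or chosen as said. The members and lists were chosen with earlier results of these data known. Same-numbered arrays were not paired (correlations of their deviations -0.00889, -0.0234 and -0.0119), so the replicate block is an alternative only. The other alternatives were 4 scalings, a filter, a variance model, the mean of features, a threshold of 0.01 and leaving out each array.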

Additional observations from a re-analysis of the deposited data

How the results depend on the processing

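Of the 15 ribosomal protein calls, 7 (RPS23, RPS26, RPS24, RPL31, RPL34, RPS14 and RPL28) held in all 15 alternatives and 8 were lost in at least 1; none turned in direction, and 11 other members passed in at least 1. The median difference over all genes, 0.0132 in the main fit, ran under the scalings from -0.0117 (cyclic loess) to 0.0402 (centring on the 75th percentile). The family median, 0.035 in the main fit, was -0.0025 and 0.062 under these settings. Centring on the 75th percentile gave 10 members higher and 5 lower (large subunit 5 higher), repeated quantile normalization 6 and 7 (small subunit 3 higher), and cyclic loess 6 and 9 (small subunit 3 higher), with a small-subunit median of 0.025 and a family median of -0.0025. The trended and robust variance model gave 13 higher and 10 lower (large subunit 5 and 7, small subunit 8 and 3). Testing only genes above the median feature gave 10 and 7 (large subunit 5 higher). A threshold of 0.01 left 3 higher and 4 lower (large subunit 0 and 3, small subunit 3 and 1). The cause of these moves was not tested, apart from the stricter threshold and the smaller number of genes tested.

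Leaving out 1 array at a time gave 5 to 8 members higher and 4 to 5 lower: 1 to 4 and 3 in the large subunit, 3 to 6 and 1 to 2 in the small. The family median ran from 0.0103 to 0.0664, that of the large subunit from -0.00236 to 0.0653 and that of the small from 0.0684 to 0.134. All genes gave 2021 to 2253 higher and 2561 to 2731 lower. With the replicate number as a block, a fit the arrays' numbers give no ground for, 7 members were higher and 5 lower (all genes 2353 and 2862), and RPS3, RPL27 and RPS27L missed the threshold. The correlation with neighbours was 0.676 with 5 neighbours on each side and 0.783 with 20, both chosen after seeing the data. The number of arrays, 3 technical ones per line, limits the precision.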
